A study of Mus musculus with 6 samples.

Results

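The MHC class I presentation genes described here are 10 genes of the pathway that displays intracellular peptides on the cell surface, taken by name from a deposited table of 50559 genes: H2-K1, H2-D1, H2-T23, B2m, Tap1, Tap2, Tapbp, Psmb8, Psmb9 and Nlrc5. All 10 were found and all 10 had enough counts to be tested, as did 22360 genes in all. RNA sequencing was run on 6 libraries from C57 mice, 3 labelled WNT3 overexpression and 3 labelled WNT3 control, and the comparison asks which transcripts differ in auditory cortex when this secreted Wnt ligand is overexpressed. The labels give no vector, promoter, targeted cell type, age or sex, and do not say whether each library is a separate animal; the p-values therefore reflect library-to-library spread alone, which may be technical. The tissue is labelled auditory cortex, whereas the extraction protocol names striatum.

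Class I molecules carry peptides from the inside of the cell to its surface, where CD8 T cells and natural killer cells read them. The immunoproteasome cuts proteins into peptides, the TAP transporter moves the peptides into the endoplasmic reticulum, tapasin helps load them, and a heavy chain pairs with beta-2-microglobulin to hold them. Interferons raise the whole pathway through IRF1 and the transactivator NLRC5, which acts on a composite promoter element that includes an X2 box and a Y box. In the brain, class I RNA is found in endothelial cells and microglia and in some neurons, where class I proteins have been linked to synapse remodelling.

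The members cluster in the genome. By the GENCODE M21 annotation of mm10, 8 lie on chromosome 17, in or next to the major histocompatibility complex, while B2m lies on chromosome 2 (122147686 to 122153083, plus strand) and Nlrc5 on chromosome 8 (94434356 to 94527272, plus strand). On chromosome 17, Psmb9, Tap1, Psmb8 and Tap2 fill 34.3 kb between positions 34181987 and 34216321. Tap1 (plus strand) and Psmb9 (minus strand) overlap by 212 bases, and their promoter windows share 275 of 300 bases; how strand was treated in counting is not stated, so their counts may share reads. H2-K1 lies at 33996017 to 34000347 on the minus strand, H2-D1 at 35262730 to 35267499 on the plus strand and H2-T23 at 36029773 to 36032855 on the minus strand.

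Promoter sequences of H2-K1, H2-D1, B2m and Tap1 are shown because their transcripts give the main contrasts below: the pair of classical heavy chains, their shared light chain, and a transporter gene whose start is shared with an immunoproteasome gene. Each is the RefSeq window of GRCm38.p6 from 250 bases before to 50 bases after the listed start, which for 8 of the 10 members was in the table (Tap2 and Nlrc5 had no entry). The windows are chr17:34000298-34000597 (minus strand), chr17:35262844-35263143 (plus strand), chr2:122147437-122147736 (plus strand) and chr17:34187306-34187605 (plus strand). Capitals mark matches, on either strand, to an interferon response core (TTTCNNTT), a GAS element (TTCNNNGAA), a kappaB site (GGGATTCCC), an X2 box (TGACG) and a Y box (CCAAT).
H2-K1: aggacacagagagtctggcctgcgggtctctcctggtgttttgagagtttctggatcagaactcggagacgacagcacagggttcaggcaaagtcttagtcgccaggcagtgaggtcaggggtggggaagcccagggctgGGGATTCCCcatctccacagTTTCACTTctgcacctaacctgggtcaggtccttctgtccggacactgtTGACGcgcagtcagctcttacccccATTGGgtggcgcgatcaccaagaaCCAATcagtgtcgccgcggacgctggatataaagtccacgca
H2-D1: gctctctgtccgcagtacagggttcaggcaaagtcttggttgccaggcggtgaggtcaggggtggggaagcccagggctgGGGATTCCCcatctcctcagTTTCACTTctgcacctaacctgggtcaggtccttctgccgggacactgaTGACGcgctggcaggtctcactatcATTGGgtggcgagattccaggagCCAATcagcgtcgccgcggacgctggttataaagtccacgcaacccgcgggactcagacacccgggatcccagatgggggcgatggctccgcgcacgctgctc
B2m: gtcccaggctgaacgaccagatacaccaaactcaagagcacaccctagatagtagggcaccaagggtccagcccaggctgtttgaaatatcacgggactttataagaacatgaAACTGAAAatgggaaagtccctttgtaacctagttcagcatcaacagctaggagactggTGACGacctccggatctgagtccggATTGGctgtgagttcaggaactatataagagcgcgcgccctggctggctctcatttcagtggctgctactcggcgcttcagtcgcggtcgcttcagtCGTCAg
Tap1: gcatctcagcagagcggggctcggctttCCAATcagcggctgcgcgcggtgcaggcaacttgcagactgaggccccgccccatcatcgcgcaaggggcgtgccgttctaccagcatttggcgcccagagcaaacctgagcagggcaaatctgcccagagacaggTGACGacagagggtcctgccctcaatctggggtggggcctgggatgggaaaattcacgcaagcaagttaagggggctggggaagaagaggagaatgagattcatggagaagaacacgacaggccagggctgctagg

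The H2-K1 and H2-D1 windows were near copies, with 211 of 239 aligned bases identical (88.3%). Each held a kappaB match followed by an interferon response core, an X2 box and a Y box. The kappaB match began 110 bases before the listed start in H2-K1 and 170 bases before it in H2-D1, and of 27025 promoters 0.37% held this match. The interferon response core began 90 and 150 bases before the listed start in H2-K1 and H2-D1, and the X2 box 41 and 101. Spacing between these matches was thus the same in both windows, and the offsets differ by where the start is listed. The interferon response core was found in 4 of the 8 member windows (B2m, H2-K1, H2-D1 and H2-T23) against 24.2% of all promoters. The X2 box was found in 5 of 8 against 21%, the Y box in 7 of 8 against 37.9%, and the GAS element in Psmb8 only, against 8.47%. The X2 and Y box matches of Tap1 and Psmb9 are the same bases, read on opposite strands. As the H2-K1 and H2-D1 windows are also near copies, the member windows are not independent in these counts. These matches describe letters in a fixed window and say nothing of binding.

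Ordered by TPM (the authors' length-scaled transcript unit, which allows genes to be compared within a library), the pathway spanned a wide range. B2m was the most abundant member, at 259 ± 57.4 TPM over all 6 libraries (SD, n = 6), and Nlrc5 the least, at 0.916 ± 0.78 TPM (SD, n = 6). Between them came H2-D1, H2-K1, H2-T23, Tapbp, Tap2, Psmb8, Psmb9 and Tap1. B2m lay above H2-D1, H2-D1 above H2-K1, and H2-T23 above Tapbp in each of the 6 libraries. Tap2 lay above Psmb8 in 3 of 6 libraries and Psmb9 above Tap1 in 4 of 6, so these neighbours in the order were not separated. The ratio of B2m to the sum of H2-K1 and H2-D1 in TPM was 2.24, 2.10 and 2.62 in overexpression libraries 1, 2 and 3, against 3.27, 3.09 and 2.80 in control libraries 1 to 3. All 3 overexpression ratios lay below all 3 control ratios, nearest between overexpression library 3 and control library 3. The mean log2 difference was -0.40 (exact two-sided permutation p = 0.1, the smallest 3 libraries a group allow, and 0.2 adjusted over this and the 3 proteasome ratios below), for a ratio that was not among the planned tests.

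Total counts ran from 54642400 to 71803617 in overexpression libraries and from 42614588 to 55859274 in controls, and the 10 members together held 14405 to 17022 counts in overexpression libraries and 7560 to 16629 in controls. Wnt3 itself had 98.8, 7.45 and 8.71 CPM in overexpression libraries 1, 2 and 3, against 2.70, 1.91 and 1.74 CPM in controls (CPM, a gene's counts scaled to TMM-normalised library size), a log2 fold change of 4.18 ± 1.02 (SE, edgeR adjusted p = 0.822). Every overexpression library was thus above every control, and overexpression library 1 stood far above the other 2. Control library 2 differed from the other controls by transcript length. In log2 CPM it lay 0.88 above the mean of controls 1 and 3 at the median of the shortest of 5 equal length classes of tested genes, and at -0.65 from that mean in the longest class. The short neuronal RNA Bc1 was at 9084 CPM in control 2, against 1910 and 2103 CPM in controls 1 and 3. Cortical markers were present in every library (Tbr1 101 to 132 CPM over the 6 libraries), and striatal markers were lower but not absent (Drd1 8.19 to 22.4 CPM over the 6 libraries).

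No class I presentation gene passed an adjusted p of 0.05 when overexpression was compared with control. By edgeR (quasi-likelihood, Benjamini-Hochberg adjusted) the comparison called 0 of the 10 members and 0% of all 22360 tested genes. DESeq2 also called 0 members, against 0.25% of the genes to which it gave an adjusted p, and limma voom called 0 genes; at an unadjusted p under 0.05 edgeR had 1040 genes and voom 1032. Of the 10 members, 8 had a log2 fold change above 0 and 2 below, with a median of 0.17 against -0.0069 over all tested genes. At an unadjusted p under 0.05 the edgeR test found 1 member higher in overexpression, Nlrc5, where 1.86% of all tested genes were. Nlrc5 was also the 1 member with every overexpression library above every control, a pattern seen in 5.89% of tested genes. In bulk tissue such as this, fewer cells of a type and less RNA per cell cannot be told apart.

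**Figure D1:**
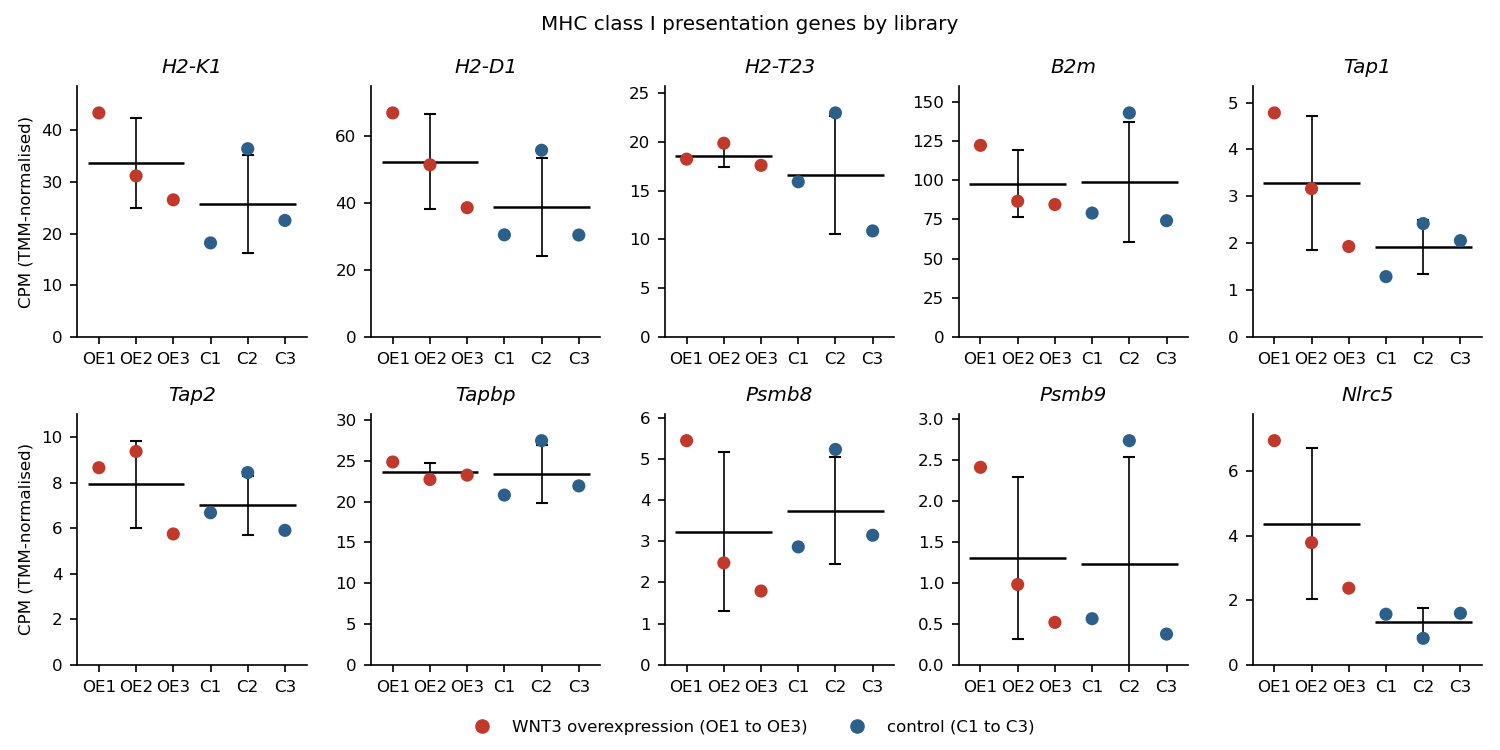
Level of each of the 10 genes in each library, as TMM-normalised CPM on a linear axis from 0, with overexpression libraries (OE1 to OE3) left of controls (C1 to C3). Points are libraries, horizontal lines are group means and bars are SD (n = 3 each). Control 2 is the highest control in 9 of 10 panels and the lowest in that of Nlrc5.

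Nlrc5, the transactivator of class I genes, was at 6.96, 3.79 and 2.38 CPM in overexpression libraries 1, 2 and 3, against 1.57, 0.825 and 1.6 CPM in controls 1 to 3. The groups did not overlap, the nearest values being those of overexpression library 3 and control 3. Its log2 fold change was 1.71 ± 0.47 (SE, n = 3 each), with an unadjusted p of 0.0061 and an adjusted p of 0.822 by edgeR, and an adjusted p of 0.083 by DESeq2. The log2 fold change was lowest among the single omissions when overexpression library 1 was left out (1.22) and highest when overexpression library 3 was (2.01), and was 1.46 without control 2 and 0.96 without overexpression library 1 and control 2. On the log2(TPM + 1) scale, which understates changes of low genes, it was 0.77. Nlrc5 has the longest transcript of the 10 in relative length, 2.61 times the median gene, and its lowest value was in control 2.

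The classical heavy chains H2-K1 and H2-D1, which present peptides to CD8 T cells, had similar profiles across libraries, with a Pearson r of 0.970 over the 6 libraries, given as a description. H2-K1 was at 43.3, 31.2 and 26.5 CPM in overexpression libraries 1, 2 and 3, against 18.2, 36.4 and 22.5 CPM in controls 1 to 3. H2-D1 was at 66.8, 51.3 and 38.5 CPM in overexpression libraries, against 30.5, 55.6 and 30.4 CPM in controls. For each gene all 3 overexpression libraries lay above controls 1 and 3, and control 2 lay above overexpression libraries 2 and 3. The log2 fold change was 0.39 ± 0.30 for H2-K1 and 0.43 ± 0.30 for H2-D1 (SE, n = 3 each; edgeR adjusted p = 0.822 for each). Without control 2 these were 0.72 ± 0.22 and 0.78 ± 0.22 (SE), with edgeR adjusted p of 0.732 and 0.700, and without overexpression library 1 they were 0.17 and 0.22. H2-T23, the nonclassical heavy chain that presents signal peptides to the CD94/NKG2 receptors of natural killer cells, was at 18.2, 19.9 and 17.6 CPM in overexpression libraries, against 15.9, 23 and 10.9 CPM in controls. Its overexpression values were close together and lay within the control range, with a log2 fold change of 0.16 ± 0.27 (SE), or 0.47 without control 2 and -0.06 without control 3.

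B2m, the light chain of all class I molecules, was at 122, 86.6 and 84.5 CPM in overexpression libraries 1, 2 and 3, against 79.1, 143 and 74.2 CPM in controls 1 to 3. Control 2 was the highest of the 6 libraries, and the other 2 controls were the lowest. The log2 fold change was -0.01 ± 0.29 (SE, edgeR adjusted p = 0.990) with all libraries and 0.35 ± 0.17 (SE) without control 2. It was -0.20 without overexpression library 1, so the sign for B2m depended on single libraries.

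Among the peptide transport and loading genes, Tap1 had the largest fold change. Tap1, a subunit of the peptide transporter, was at 4.78, 3.17 and 1.93 CPM in overexpression libraries 1, 2 and 3, against 1.29, 2.42 and 2.06 CPM in controls. Overexpression libraries 1 and 2 exceeded every control, and overexpression library 3 lay within the control range. The log2 fold change was 0.77 ± 0.41 (SE, edgeR adjusted p = 0.822), and 0.41 without overexpression library 1. Tap2, the partner subunit, was at 8.67, 9.38 and 5.76 CPM in overexpression libraries, against 6.69, 8.45 and 5.91 CPM in controls, with a log2 fold change of 0.18 ± 0.27 (SE). Overexpression library 3 was the lowest of all 6 for Tap2, and the fold change was 0.33 without control 2 and 0.039 to 0.36 over the single omissions. Tapbp, which encodes tapasin, was the most even member, at 24.8, 22.7 and 23.2 CPM in overexpression libraries, against 20.8, 27.5 and 21.9 CPM in controls, and a log2 fold change of 0.01 ± 0.18 (SE).

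The immunoproteasome genes were uneven within groups. Psmb8, the chymotrypsin-like subunit, was at 5.44, 2.47 and 1.79 CPM in overexpression libraries 1, 2 and 3, against 2.86, 5.23 and 3.14 CPM in controls 1 to 3. Overexpression library 1 and control 2 were high, and overexpression libraries 2 and 3 were below every control. The log2 fold change of Psmb8 was -0.21 ± 0.46 (SE), and -0.81 without overexpression library 1. Psmb9, which replaces the caspase-like subunit, was at 2.41, 0.980 and 0.518 CPM in overexpression libraries, against 0.563, 2.73 and 0.376 CPM in controls, from 19 to 149 counts per library over all 6 libraries. Its log2 fold change of 0.08 ± 0.82 (SE) had the widest error of the 10, and was 1.47 without control 2 and -0.71 without overexpression library 1.

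Beside the constitutive subunits that they replace, Psmb8 and Psmb9 were minor forms. The TPM ratio of Psmb8 to Psmb5 was 0.107, 0.0541 and 0.0341 in overexpression libraries 1, 2 and 3, against 0.0618, 0.0472 and 0.0657 in controls 1 to 3. The TPM ratio of Psmb9 to Psmb6 was 0.0618, 0.0283 and 0.0143 in overexpression libraries, against 0.0169, 0.0321 and 0.0103 in controls. In each of these pairs overexpression library 1 had the highest ratio, and the other libraries overlapped. The mean log2 differences were 0.02 and 0.72 (exact two-sided permutation p = 1 and 0.5, adjusted over 3 ratios 1 and 0.75), and 3 libraries a group cannot give a p under 0.1. The third pair gave a TPM ratio of Psmb10 to Psmb7 of 0.164, 0.168 and 0.171 in overexpression libraries, against 0.197, 0.227 and 0.18 in controls. All overexpression ratios of this pair lay below all controls, with a mean log2 difference of -0.25 (exact two-sided permutation p = 0.1, the smallest this design allows, and 0.3 adjusted over 3 ratios).

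**Figure D2:**
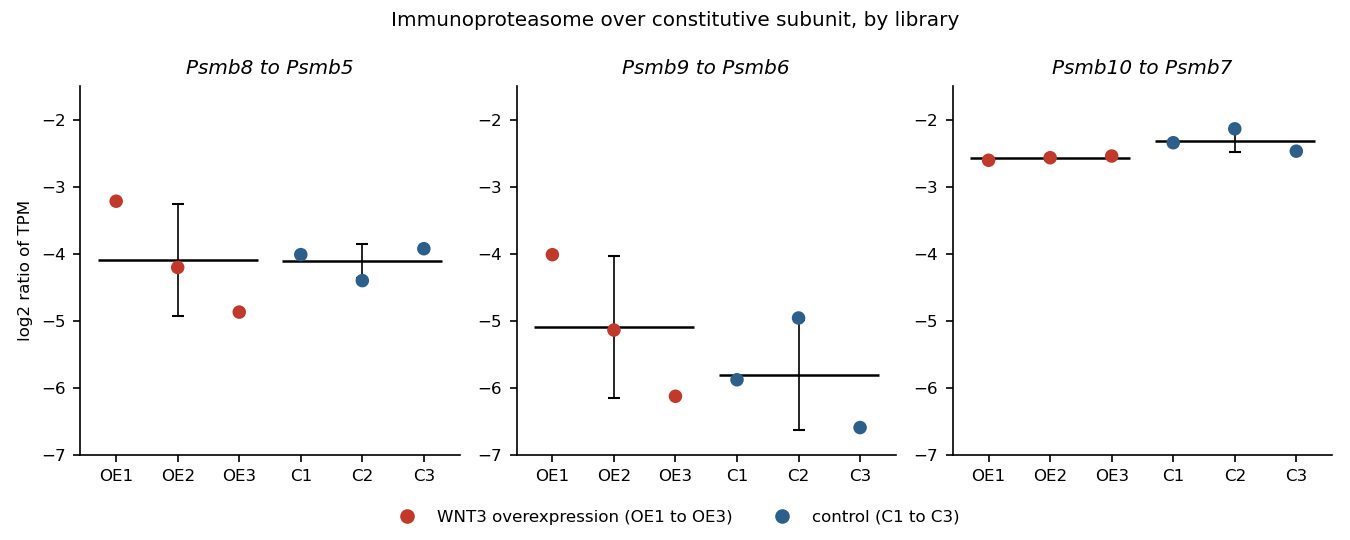
Log2 ratio of TPM between each immunoproteasome subunit and the constitutive subunit it replaces, by library, with overexpression (OE1 to OE3) left of control (C1 to C3). Points are libraries, lines are group means and bars are SD (n = 3 each). OE1 is highest in the first and second panels, and in the third every overexpression point lies below every control.

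Across the 10 members, overexpression libraries 1 and 2 and control 2 were high. Set against the mean of the controls, the members' median log2 level stood at 0.70, 0.33 and 0.03 for overexpression libraries 1, 2 and 3, against -0.27, 0.53 and -0.21 in controls 1 to 3. Overexpression library 1 was the highest of its group for 8 members and overexpression library 3 the lowest for 9. Control 2 was the highest control for 9 members and exceeded all other libraries for 4. With a trend on transcript length removed from each library, an alternative chosen after the data were seen, the medians were 0.90, 0.51 and 0.08 in overexpression libraries and -0.11, 0.14 and -0.02 in controls. On that scale overexpression library 3 lay between control 2 and control 3.

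**Figure D3:**
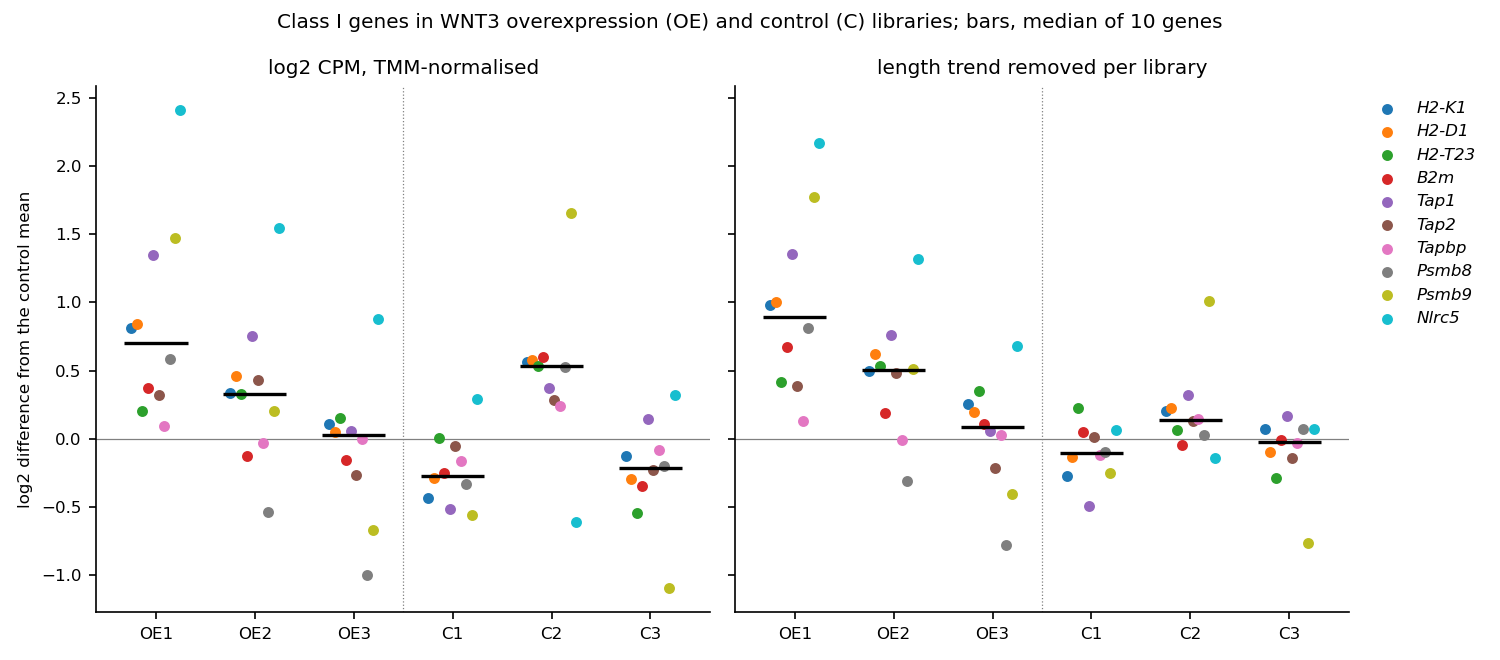
Log2 difference of each of the 10 genes from its control mean, by library, before (left) and after (right) removal of a length trend per library; coloured points are genes and black bars are medians of the 10 genes. The median of control 2 (C2) is 0.53 on the left and 0.14 on the right, whereas that of overexpression library 1 (OE1) is 0.70 and 0.90.

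The position of control 2 varied with transcript length among the members as it did among all genes. Relative length, the ratio of counts to TPM scaled to the median gene, was 0.294 for B2m, 0.296 for Psmb9, 0.42 for Psmb8, 0.451 for H2-T23, 0.581 for H2-K1 and 0.594 for H2-D1. In log2 CPM these 6 genes were 0.79 (Psmb8) to 2.48 (Psmb9) higher in control 2 than in the mean of controls 1 and 3. The 3 members near the median length, Tap1, Tap2 and Tapbp, were 0.36 to 0.56 higher, and the long Nlrc5 differed by -0.91. The Spearman correlation between length and this difference was -0.83 over the 10 members, which share the same 3 libraries, and it is given as a description. RNA quality was not measured in the files used here, and its part in the difference between control 2 and the other libraries was not tested.

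**Figure D4:**
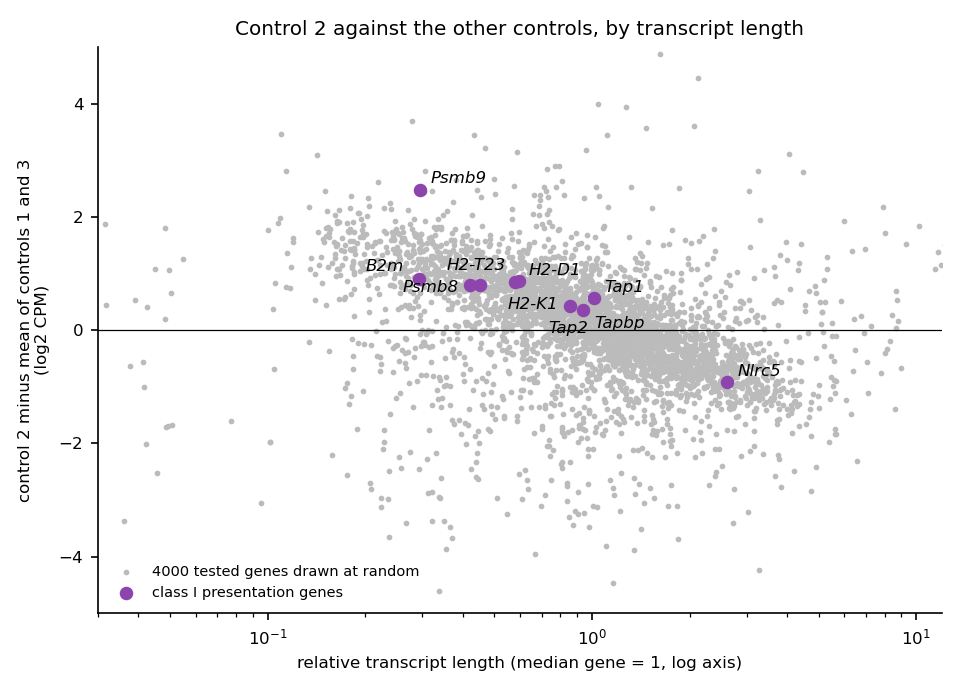
Difference of control 2 from the mean of controls 1 and 3 in log2 CPM against relative transcript length (log axis, median gene = 1) for the 10 class I genes (purple) and a random draw of tested genes (grey); genes beyond the axes are not drawn. The short members lie above 0, up to 2.48 for Psmb9, and Nlrc5 lies at -0.91.

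Leaving out control 2 moved the members' median log2 fold change more than any other single omission. All 10 members then had a log2 fold change above 0, with a median of 0.60, and edgeR gave H2-K1, H2-D1, H2-T23 and Nlrc5 an unadjusted p under 0.05 with higher values in overexpression. That is 4 of 10 members, where 3.07% of all genes tested in that fit met the same rule, and 0 members passed an adjusted p of 0.05. In 6 members (H2-K1, H2-D1, H2-T23, B2m, Tapbp and Nlrc5) every overexpression library lay above controls 1 and 3, a comparison chosen after the data were seen and met by 11.2% of tested genes. With the length trend removed and all 6 libraries kept, all 10 members were again above 0, with a median of 0.51. H2-K1, H2-D1, H2-T23 and Nlrc5 were higher at an unadjusted edgeR p under 0.05, and 0 members passed after adjustment. Of all 22360 genes tested in that fit, 631 were higher in overexpression at the same unadjusted p, against 415 in the main fit. The median was 0.14 without overexpression library 1, 0.41 without overexpression library 3, 0.14 without control 1 and 0.02 without control 3. When control 2 and overexpression library 1 were both left out the median was 0.49, with 9 members above 0 and Psmb8 at -0.49.

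**Figure D5:**
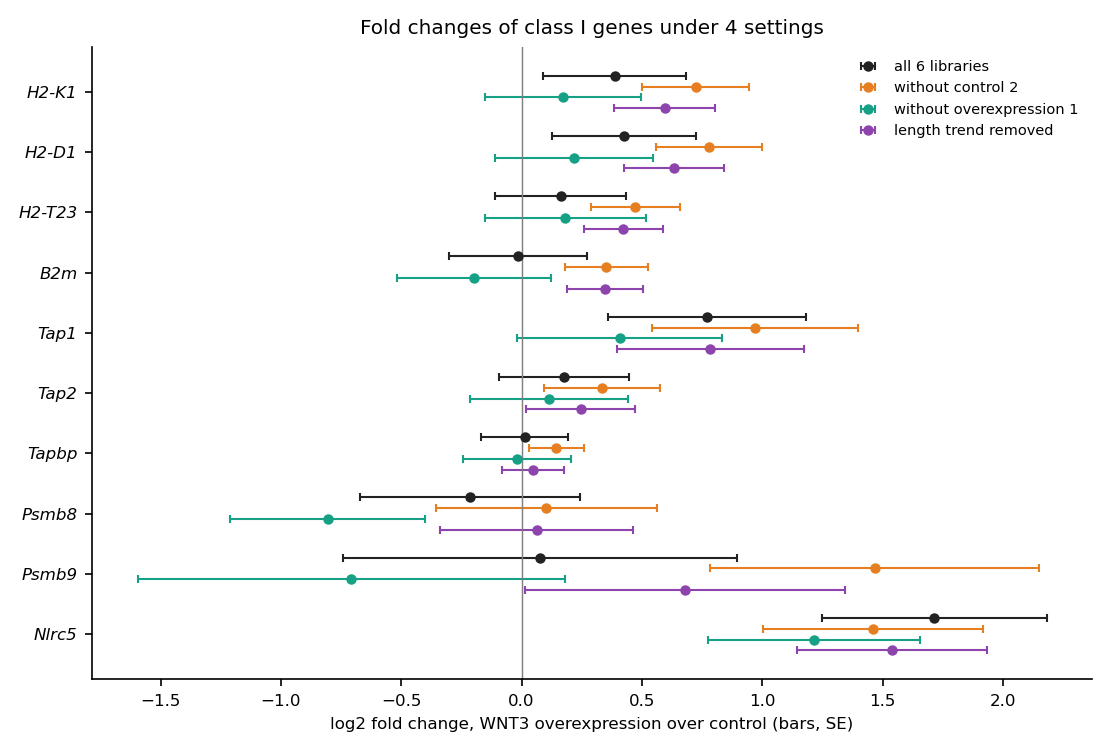
Log2 fold change of each gene, overexpression over control, with SE bars, under 4 settings: all 6 libraries, control 2 omitted, overexpression library 1 omitted, and a fit corrected for length. Without control 2 all 10 points lie above 0, with a median of 0.60; without overexpression library 1 the median is 0.14.

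Other genes of the pathway gave a mixed picture, and by edgeR 0 genes of any of the lists below passed an adjusted p of 0.05. Of 18 other class I and class I-like heavy chains, 14 were tested and 11 of these had a log2 fold change above 0, with a median of 0.27, or 0.09 without overexpression library 1. H2-Q7, a Qa-2 heavy chain, was at 3.07, 1.24 and 0.63 CPM in overexpression libraries 1, 2 and 3, against 0.493, 0.88 and 0.633 CPM in controls, a log2 fold change of 1.29 ± 0.60 (SE). H2-T24, a nonclassical heavy chain gene, was at 21.1, 8.39 and 12.9 CPM in overexpression libraries, against 7.67, 3.83 and 10.5 CPM in controls (0.94 ± 0.44, log2 ± SE). For both genes the groups overlapped, and for H2-Q7 the high value was that of overexpression library 1. By GENCODE M21, 34.9% of the 50-base stretches of the H2-Q7 transcript occur in transcripts of other genes, chiefly H2-Q6. The same share was 28.8% for H2-T23, 14.3% for H2-D1 and 8.79% for H2-K1, so counts of these heavy chains may hold reads of their relatives, while B2m, Psmb8, Psmb9 and Nlrc5 shared 0%. For 100-base stretches the share was lower, at 16.4% for H2-Q7, 7.28% for H2-T23, 4.64% for H2-D1 and 0% for H2-K1.

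Peptide trimming and loading partners were split, with 3 of 6 above 0 and a median log2 fold change of 0.02. The chaperone genes Calr and Pdia3, which hold class I heavy chains during folding, had log2 fold changes of -0.26 ± 0.26 and -0.19 ± 0.20 (SE). The other immunoproteasome and activator subunits were all below 0 with all libraries, with a median of -0.37 over Psmb10, Psme1 and Psme2, but 2 of 3 were above 0 without control 2. Psmb10, the trypsin-like immunoproteasome subunit, was at 16.3, 16.3 and 15.8 CPM in overexpression libraries 1, 2 and 3, against 18.2, 45.2 and 16.3 CPM in controls, so control 2 stood apart and the 3 overexpression values lay just under control 3. Its log2 fold change was -0.72 ± 0.37 (SE). The constitutive subunits Psmb5, Psmb6 and Psmb7 behaved alike in control 2, at 78.7, 103 and 151 CPM, and their median log2 fold change was -0.46 with all libraries and 0.08 without control 2.

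Regulators of class I transcription had a median log2 fold change of 0.19, with 10 of 12 above 0, and 0.10 without overexpression library 1. Irf2, an interferon regulatory factor, had a log2 fold change of 0.39 ± 0.22 and Stat2, a signal transducer of type I interferons, 0.26 ± 0.15 (SE). Ifng and Ifnb1, the genes of interferon gamma and beta, had no count in any library. The 4 tested interferon receptor genes had a median of 0.03, with Ifngr1 at 0.24 ± 0.19 and Ifnar2 at -0.09 ± 0.26 (log2 ± SE).

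Interferon-stimulated genes outside the class I pathway were highest in overexpression library 1 in 16 of 16 cases, and control 2 was the highest control for 4 of them (Isg15, Usp18, Bst2 and Ifitm3). Of 16 tested, 16 had a log2 fold change above 0, with a median of 0.64, or -0.25 without overexpression library 1, where 6 of 16 were above 0. Oas2, an antiviral enzyme, was the 1 gene of the list with an unadjusted edgeR p under 0.05 (0.034), at 4.69, 1.54 and 1.49 CPM in overexpression libraries, against 1.08, 0.697 and 1.27 CPM in controls. Class II presentation genes were at low level, with 5 of 6 above 0 and a median log2 fold change of 0.86, which was 1.70 without control 2 and 0.53 without overexpression library 1. Of these, H2-Aa had an unadjusted edgeR p of 0.037 and was at 4.16, 2.52 and 1.51 CPM in overexpression libraries, against 0.282, 1.71 and 0.653 CPM in controls. Its log2 fold change was 1.62 ± 0.65 (SE), and the groups overlapped at control 2.

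Of the listed class I receptors and related genes, 2 of 8 could be tested, and both had higher values in overexpression at low counts. Lilrb4a, an inhibitory leukocyte receptor, was at 3.14, 1.72 and 1.18 CPM in overexpression libraries 1, 2 and 3, against 0.329, 0.22 and 0.396 CPM in controls (log2 fold change 2.67 ± 0.50, SE, edgeR adjusted p = 0.822, DESeq2 adjusted p = 0.0022). Pirb, a receptor for class I molecules on myeloid cells and neurons, was at 2.25, 1.38 and 0.42 CPM in overexpression libraries, against 0.399, 0.312 and 0.277 CPM in controls (2.03 ± 0.62, log2 ± SE). The groups did not overlap for either gene. The 6 other genes of the list, among them Cd8a and Klrd1, had too few counts to be tested. Cd8a, the CD8 coreceptor for class I, was at 1.77, 0.177 and 0.112 CPM in overexpression libraries, against 0, 0.11 and 0.138 CPM in controls.

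Markers of cells that carry class I molecules also differed between libraries. Ptprc, the pan-leukocyte antigen CD45, was at 14.7, 6.43 and 6.44 CPM in overexpression libraries 1, 2 and 3, against 4.72, 3.17 and 6.37 CPM in controls. The summed level of 6 endothelial markers was 187 to 276 CPM in overexpression libraries, against 138 to 147 CPM in controls, with 5 of 6 above 0. The summed level of 6 genes listed as markers of myeloid infiltrate was 8.60 to 39.7 CPM in overexpression libraries, against 2.98 to 4.20 CPM in controls. All 6 had a log2 fold change above 0, and S100a9 was at 0 in control 1. Of these 6, Itgal and Ms4a4b are not particular to myeloid cells. In overexpression library 2, S100a8 and S100a9 held most of the sum, at 16.9 and 18.2 CPM. Ms4a4b was at 2.23, 0.369 and 0.196 CPM in overexpression libraries 1, 2 and 3, against 0.235, 0.275 and 0.336 CPM in controls. The 6 microglial markers were all below 0, with sums of 225 to 364 CPM in overexpression libraries, against 275 to 387 CPM in controls. The 8 T and natural killer cell markers summed to 3.36 to 5.78 CPM in overexpression libraries, against 1.92 to 6.0 CPM in controls, a sum carried mostly by Cd4 and Trbc2 except in overexpression library 1. The other 6 (Cd3e, Cd3d, Cd3g, Cd8a, Nkg7 and Klrd1), with too few counts to test, were each highest in overexpression library 1, where most members were also highest within their group. They summed to 4.55, 0.562 and 0.644 CPM in overexpression libraries 1, 2 and 3, against 0.305, 0.642 and 0.475 CPM in controls 1 to 3. The sum of Cd4 and Trbc2, the 2 tested markers, was instead lowest in overexpression library 1. It was 1.23, 2.80 and 2.72 CPM in overexpression libraries 1, 2 and 3, against 1.62, 5.35 and 3.01 CPM in controls. Both genes had a log2 fold change below 0. The 5 meningeal fibroblast markers summed to 25.0 to 75.0 CPM in overexpression libraries, highest in library 1, against 24.2 to 57 CPM in controls. The part of these cells in the class I values was not tested.

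The genes whose log2 CPM over the 6 libraries was most like the mean standardised profile of the 10 members were Pik3ip1, Selenbp1, Bbs4, Shpk and Rac2, with Pearson r of 0.994, 0.989, 0.982, 0.978 and 0.978 among 13936 genes compared. Each had its highest values in overexpression library 1 and control 2, as in the member profile, where these 2 libraries stood at mean z scores of 1.06 and 0.76. With 6 points and this many genes, high values of r are given as a description only.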

How the data were processed

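The deposited count table gives whole-number counts per gene with 1 column per library, as deposited by the authors with no normalization. The deposited TPM table gives the authors' TPM for the same genes, each library summing to the same total. RNA was extracted with Trizol and made into strand-specific TruSeq libraries, per the labels' protocols. FastQC 0.11.5, STAR 2.5.3a, Cuffnorm, DESeq 1.16.1 and mm10 are named, per the submitters' processing notes, without their roles. Which counter, annotation and strandedness were used is not given in the sources used here, so overlapping genes on opposite strands (Tap1 with Psmb9) may share reads.

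Columns were matched to samples through library names in the labels. Genes were kept by filterByExpr (minimum count 10). Overexpression was compared with control by the edgeR 4.0.16 quasi-likelihood test in R 4.3.3, using TMM factors, a single group term and Benjamini-Hochberg adjustment over all 22360 tested genes at 0.05; each SE was taken as the absolute log2 fold change over root F. TMM factors ran from 0.977 to 1.03. CPM uses TMM-scaled library sizes, and log2 CPM a prior count of 2. Proteasome ratios, and a B2m ratio added after seeing the data, were tested by exact permutation over libraries. Alternatives were other factors and filters, DESeq2 1.42.0, limma 3.58.1 (voom, and log2 TPM with pseudocounts of 0.1 and 1, with and without a mean TPM of 0.5), a replicate block and omission of each library. A lowess length trend (span 0.3), joint omission of 2 libraries and TMM factors on TPM were chosen after seeing the data. The test code was tested on simulated data.

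The members and lists were chosen with earlier results of these data known. Named genes are the members, Wnt3, every gene of another list with an unadjusted p under 0.05 or otherwise its 2 smallest p, the proteasome subunits of the ratios, and the 5 most similar profiles with a mean CPM of 1 or more. Bc1, Cd8a and the marker genes named singly were chosen after their values were seen. Counting intervals were not used, and depth per library is in the text.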

Additional observations from a re-analysis of the deposited data

How the results depend on the processing

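The count of 0 class I genes called at an adjusted p of 0.05 held under all 23 settings. Of all genes, 0 were called under each setting except DESeq2, which called 64, none of them a member; the cause was not tested. The members' median log2 fold change was 0.17 and kept its sign throughout: single omissions gave 0.022 to 0.60 (0.60 without control 2). On log2(TPM + 1) and log2(TPM + 0.1) it was 0.41 and 0.49, with all-gene medians from 0.059 to 0.23. In these fits 3 members (H2-K1, H2-D1 and Nlrc5) were higher at an unadjusted limma p under 0.05. So were 1058 and 1002 of 35107 genes, with 464 and 397 lower. With a mean TPM of 0.5 or more, 620 and 575 of 19907 genes were higher, with 195 and 182 lower. With TMM factors on TPM the members' median was 0.28. B2m, at -0.01, changed sign with library totals only (0.025), limma voom (0.029), log2(TPM + 1) (0.25), log2(TPM + 0.1) (0.26), the replicate block (0.034), TMM factors on TPM (0.043), control 2 and overexpression library 1 left out (0.16) and the length trend removed (0.35). Psmb8 was 0.062 with the length trend removed. Over single omissions, B2m ran from -0.20 to 0.35, H2-T23 from -0.063 to 0.47, Tapbp from -0.062 to 0.14, Psmb8 from -0.81 to 0.10 and Psmb9 from -0.71 to 1.47. The log2 ratio difference of Psmb8 to Psmb5 ran from -0.42 to 0.40. Unnormalised log2(TPM + 1) put the median tested gene of control 2 at -0.25 from the mean over libraries, where TMM put it at 0.02, so log2 TPM fold changes carry that shift. With the replicate number as a block the members' median was 0.28 and 0 genes were called; same-numbered libraries did not deviate together (correlations of 0.059, -0.02 and -0.01), so the numbers are not taken as pairs. Counts of 19 to 149 limit Psmb9.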
